A study of Macaca mulatta with 25 samples.

Results

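The genes described here are 50 listed nuclear genes for subunits of the mitochondrial respiratory chain in rhesus macaque blastocysts, 36 of complex I, 6 of complex III, 5 of complex IV and 3 of complex V. They were listed by symbol and not by a cut on measured values, but the list was made with earlier results of these data known. Of the 50 symbols, 42 were matched to an identifier in the count table, and 40 of these had enough counts to be tested, out of 35395 genes in the table and 13934 genes tested. NDUFA3, NDUFA7, NDUFA13, NDUFAB1, NDUFB6, NDUFC1, NDUFS5 and UQCRFS1 were not matched and were not analysed here. NDUFA2 and COX5B, accessory subunits of complexes I and IV, were matched but fell below the count filter. NDUFA2 held 0 to 39 counts per library and was at 0 in 8 of 25 libraries, and COX5B held 0 to 12 counts and was at 0 in 18 of 25 libraries.

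Complex I takes electrons from NADH, complex III passes them from ubiquinol to cytochrome c, and complex IV hands them to oxygen. Complexes I, III and IV pump protons across the inner mitochondrial membrane, and complex V, the ATP synthase, uses the returning protons to make ATP. Most of the subunits are encoded in the nucleus and imported, and some core subunits come from the mitochondrial genome. Oxidative phosphorylation is known to become more active as mammalian embryos form a blastocyst with a fluid-filled cavity.

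The embryos came from eggs of female macaques put on treatment at about 2.5 years of age, 10 females per group, and kept on it for 5 to 6 years, after which the ovaries were stimulated and the eggs fertilised in vitro with semen of 4 males. Group TWSD (2 libraries, from 3 females that could be stimulated) had testosterone implants and a Western-style diet of 36% fat, 46% carbohydrate and 18% protein. Group T (10 libraries, 7 females) had testosterone implants, which raised circulating testosterone to 3 to 5 times the normal level, and standard chow of 15% fat, 59% carbohydrate and 26% protein. Group WSD (8 libraries, 6 females) had the Western-style diet without testosterone. Group C (5 libraries, 10 females) had cholesterol implants and standard chow. All embryos were grown in culture for up to 8 days and stripped of the zona pellucida, the outer coat. The labels do not tie a library to a mother, father, day or batch, nor say whether 1 library is 1 embryo, so a p-value here reflects the spread among libraries, which may be technical. In these bulk libraries, fewer cells of a type and less RNA per cell cannot be told apart.

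Library totals ran from 14219054 to 35544542 counts. Levels below are counts scaled to equal library size (CPM) and adjusted with TMM factors, which put the libraries on a common scale. Gene lengths were not used, so levels are compared between libraries and not between genes. Markers of trophectoderm, epiblast and primitive endoderm, the cell types of a blastocyst, were detected in every group. The summed level of 7 matched epiblast markers was 647 to 869 CPM in TWSD, 709 to 1512 CPM in T, 373 to 997 CPM in WSD and 6.06 to 1428 CPM in C libraries, where libraries C 11 and C 12 held 26.8 and 6.06 CPM. Over 6 matched trophectoderm markers it was 4908 to 7213 CPM in TWSD, 2945 to 12287 CPM in T and 4880 to 19469 CPM in WSD. C 1 held the lowest trophectoderm sum of the 25 libraries, 1584 CPM, and C 2, C 8, C 11 and C 12 held 13211, 11850, 2694 and 2151 CPM. Libraries C 8, C 11 and C 12 also stood apart in the summed level of 8 stress markers, at 1896, 4292 and 24275 CPM, against at most 644 CPM in any of the other 22 libraries. They held 10884, 3875 and 7987 CPM over 8 syncytiotrophoblast markers (a fused placental cell layer), where T 1 held 3624 CPM and the next highest library held 537 CPM. The same 3 held the lowest mean levels of the subunit genes in group C, given below. T 1 had a mean log2 CPM of 6.38 over the subunit genes, against 6.26 to 7.34 in all T libraries. WSD 6 had the highest stress sum outside these 3 controls, 644 CPM, which is far below theirs. Its mean over the subunit genes was 6.75, against 6.36 to 6.95 in all WSD libraries. The part of the markers in any result was not tested. Changes against C with a test are given below with and without these 3 libraries.

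No subunit gene passed the test in any of 6 comparisons between the groups. The levels differed more between single libraries than between groups. Averaged over the 40 tested members, the log2 CPM was 7.88 in TWSD 2 and 6.47 in TWSD 3. It ran from 6.26 in T 10 to 7.34 in T 6, and from 6.36 in WSD 7 to 6.95 in WSD 4. Controls C 1, C 2, C 8, C 11 and C 12 averaged 7.22, 6.94, 6.33, 6.09 and 5.80. The group means were 7.17 ± 0.99 in TWSD (SD, n = 2), 6.76 ± 0.41 in T (n = 10), 6.68 ± 0.19 in WSD (n = 8) and 6.48 ± 0.59 in C (n = 5). The ranges of all 4 groups overlapped, with TWSD 2 above and C 11 and C 12 below all other libraries. As a share of all counts, the 40 genes took 1.40% in TWSD 2 and 0.948% in TWSD 3, against 1.26%, 1.02%, 0.679%, 0.559% and 0.397% in libraries C 1, C 2, C 8, C 11 and C 12. TWSD 2 and C 12 had the lowest TMM factors, 0.763 and 0.708. With scaling by library totals alone their means were 7.48 and 5.30, and they were still the highest and the lowest of the 25 libraries.

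**Figure D1:**
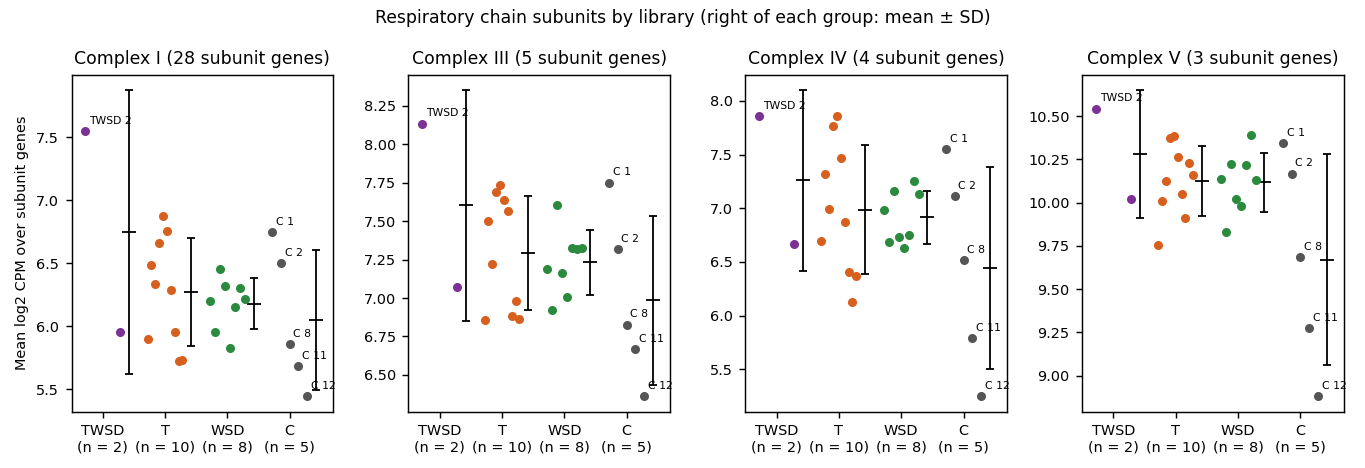
Mean log2 CPM (TMM-scaled) over the tested subunit genes of complexes I, III, IV and V in each library, with 1 point per library and the group mean ± SD at its right. TWSD 2 is high for every complex, and the controls spread from C 1 at the top (complex I 6.75) to C 12 at the bottom (complex I 5.44).

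C 1 was the highest and C 12 the lowest control in each complex. For complex I (28 genes) the mean log2 CPM was 6.75 ± 1.13 in TWSD, 6.27 ± 0.43 in T, 6.18 ± 0.20 in WSD and 6.05 ± 0.55 in C libraries. For complex III (5 genes) it was 7.60 ± 0.75 in TWSD, 7.29 ± 0.37 in T, 7.23 ± 0.21 in WSD and 6.98 ± 0.55 in C. For complex IV (4 genes) it was 7.26 ± 0.84 in TWSD, 6.99 ± 0.60 in T, 6.92 ± 0.25 in WSD and 6.44 ± 0.94 in C. For complex V (3 genes) it was 10.28 ± 0.37 in TWSD, 10.13 ± 0.20 in T, 10.12 ± 0.17 in WSD and 9.67 ± 0.61 in C (SD, n = 2, 10, 8 and 5 libraries throughout). The mean of group C was the lowest of the 4 in each complex, and the libraries of C overlapped those of every other group. This order rested on C 8, C 11 and C 12. Without them the mean of C was 6.62 for complex I, 7.53 for complex III, 7.33 for complex IV and 10.26 for complex V (n = 2), above T and WSD in each complex and above TWSD in complex IV.

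The controls were also uneven between genes. C 12 was the lowest of the 25 libraries for 21 of the 40 genes and C 11 for 5, while TWSD 2 was the highest for 27. In C 12 the deviations of the 40 genes from their own medians had an SD of 1.421 on the log2 scale, from -4.64 for NDUFS7 to 2.31 for NDUFA6. In TWSD 2 that SD was 0.77, from -1.15 for ATP5F1B to 2.29 for NDUFA12, and over the other 23 libraries it was 0.20 to 0.57. Over all genes tested the same SD was 2.94 in C 12 and 2.68 in TWSD 2, and 1.08 (WSD 4) to 2.45 (C 11) in the other 23 libraries. C 12 and TWSD 2 were thus uneven for all genes and not for the subunits alone, while C 11 had an SD of 0.47 over the subunits. In T 6, 39 of 40 genes were above their own median over the 25 libraries, and in T 9, 2 of 40 were, with no label that separates these libraries.

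**Figure D2:**
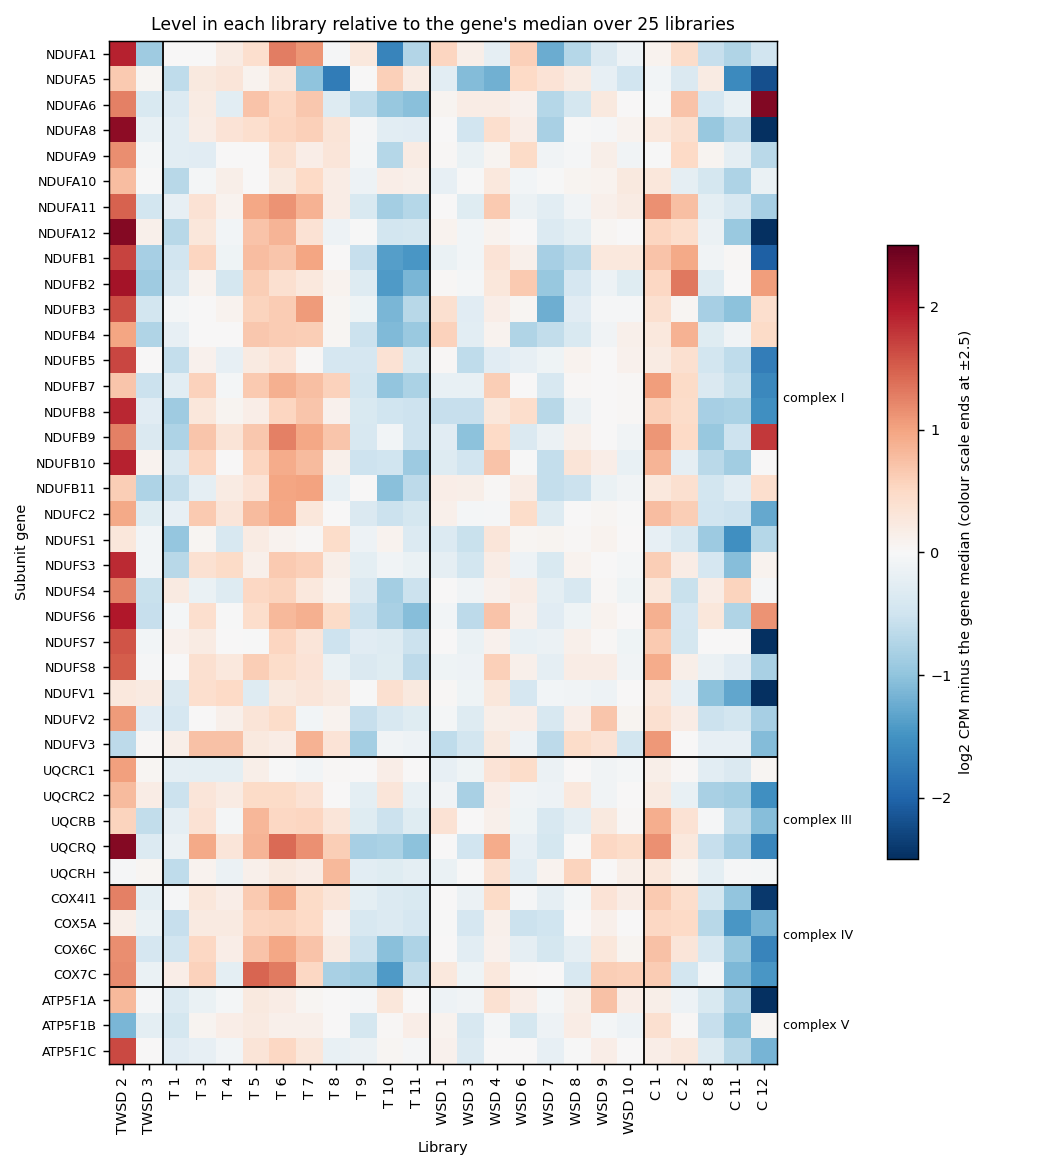
Log2 CPM of each of 40 subunit genes (rows, by complex) in each of 25 libraries (columns, by group), less the gene's median over the libraries. Red is above and blue below the median, and the column of C 12 mixes the deepest blue (NDUFS7) with the deepest red (NDUFA6).

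Complex I has a core that carries the flavin, the iron-sulphur clusters and the path of the electrons. NDUFS1, the largest iron-sulphur subunit of the NADH-oxidising arm, had 276 and 218 CPM in TWSD 2 and TWSD 3. In T libraries it had 116 CPM at the lowest, 235 at the median and 315 at the highest, and in WSD libraries 156, 234 and 282 CPM. Controls C 1, C 2, C 8, C 11 and C 12 had 198, 173, 121, 79.0 and 139 CPM. Both TWSD libraries were above all 5 controls, and T and WSD overlapped C. The log2 change was 0.64 ± 0.22 (SE) in T against C, 0.66 ± 0.23 in WSD against C and 0.80 ± 0.32 in TWSD against C, with adjusted p of 0.106, 0.103 and 0.157 (quasi-likelihood test of edgeR, Benjamini-Hochberg adjustment over all genes). These 3 comparisons share the 5 C libraries. Without C 1 the T and WSD changes were 0.79 and 0.81 and passed the test at adjusted p 0.0402 and 0.0424, and without T 1 the T change was 0.73 at 0.0350. Without C 8, C 11 and C 12 the changes were 0.43 in TWSD, 0.29 in T and 0.30 in WSD. No member passed in these comparisons, beside 0.148%, 0% and 0.00742% of all genes.

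NDUFV1 binds the flavin that takes the electrons from NADH. It had 373 and 363 CPM in TWSD 2 and TWSD 3, 243, 368 and 438 CPM at the lowest, median and highest of T, and 231, 294 and 379 CPM in WSD. Libraries C 1, C 2, C 8, C 11 and C 12 had 385, 271, 153, 126 and 25.4 CPM. C 1 was above both TWSD libraries and all WSD libraries, and C 8, C 11 and C 12 were below every library of the other groups. The log2 change was 0.88 ± 0.34 in T against C (adjusted p 0.138) and 0.64 ± 0.34 in WSD against C (0.332). Without C 1 the T change was 1.30 and passed at adjusted p 0.0165, and without C 8, C 11 and C 12 the T change was 0.15 and the WSD change -0.094.

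NDUFS3, a core subunit of the arm that leads to ubiquinone, had 337 CPM in TWSD 2 and 87.7 CPM in TWSD 3. It had 56.9, 101 and 146 CPM at the lowest, median and highest of T and 67.3, 87.1 and 105 CPM in WSD. In group C, libraries C 1, C 2, C 8, C 11 and C 12 had 141, 105, 69.2, 44.3 and 98.4 CPM. TWSD 2 stood above all other libraries and TWSD 3 lay inside the range of C. The log2 change in TWSD against C was 1.21 ± 0.40 (adjusted p 0.104), 0.80 without C 8, C 11 and C 12, and -0.045 without TWSD 2. NDUFS7, which carries the iron-sulphur cluster nearest to ubiquinone, had the largest spread of the 40 genes, with an SD of 1.03 on the log2 scale. It had 264 and 84.7 CPM in TWSD 2 and TWSD 3 and 60.6 to 129 CPM in T, 77.6 to 97.3 CPM in WSD, and 65.6 to 140.02 CPM in 4 of the 5 C libraries, against 3.50 CPM in C 12. Without C 12 its SD was 0.44.

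The accessory subunits surround the core and serve its assembly and stability. NDUFA8, an accessory subunit of the intermembrane-space side, had 559 and 104 CPM in TWSD 2 and TWSD 3 and 97.3, 142 and 180 CPM at the lowest, median and highest of T. It had 67.7, 118 and 159 CPM in WSD, and controls C 1, C 2, C 8, C 11 and C 12 had 142, 156, 61.7, 74.2 and 13.9 CPM. TWSD 3 lay inside the ranges of T, WSD and C. NDUFA12, which sits on the matrix arm, had 242 and 54.1 CPM in TWSD 2 and TWSD 3, 30.6, 47.9 and 88.7 CPM in T and 39.0, 49.4 and 52.5 CPM in WSD. Among controls, C 1, C 2, C 8, C 11 and C 12 had 71.4, 67.2, 44.7, 25.8 and 6.37 CPM. NDUFB5, of the membrane arm, had 507 and 159.9 CPM in TWSD 2 and TWSD 3, 106, 151 and 207 CPM in T, and 103, 155 and 173 CPM in WSD. The control libraries C 1, C 2, C 8, C 11 and C 12 had 184, 210.2, 117, 103 and 48.5 CPM. For each of these 3 genes TWSD 2 was the highest and C 12 the lowest library of all. The log2 changes in TWSD against C were 1.89 ± 0.53 for NDUFA8, 1.78 ± 0.55 for NDUFA12 and 1.33 ± 0.40 for NDUFB5, with adjusted p of 0.0673, 0.0831 and 0.0790 in edgeR. Without TWSD 2 they were 0.25, 0.35 and 0.29, and without C 8, C 11 and C 12 they were 1.17, 1.11 and 0.77. NDUFA10, also accessory, had the third smallest spread of the 40 genes, an SD of 0.33. It had 387 and 228 CPM in TWSD 2 and TWSD 3, 141 to 321 CPM in T, 197 to 274 CPM in WSD and 133 to 279 CPM in C.

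Not all accessory genes were low in C 12. NDUFA6, an accessory subunit of the LYR family at the matrix arm, had 109.6 and 35.0 CPM in TWSD 2 and TWSD 3. It had 22.1, 37.4 and 75.2 CPM in T and 27.9, 49.0 and 54.6 CPM in WSD. Controls C 1, C 2, C 8 and C 11 had 45.5, 74.9, 34.5 and 40.5 CPM, and C 12 had the highest level of all libraries, 227 CPM. The log2 change was -0.90 ± 0.38 in T against C (adjusted p 0.196) and -0.89 ± 0.40 in WSD against C (0.227), and -0.37 in both without C 8, C 11 and C 12. NDUFB9, another LYR protein, of the membrane arm, had 154 and 49.6 CPM in TWSD 2 and TWSD 3, 37.3, 90.9 and 154 CPM in T, 31.4, 59.1 and 90.4 CPM in WSD, and 219.7 CPM in C 12, against 33.1 to 137 CPM in the other controls. Its change in WSD against C was -0.82 ± 0.40 (adjusted p 0.272), and -0.90 without C 8, C 11 and C 12. NDUFB2, of the membrane arm, had 346 and 44.1 CPM in TWSD 2 and TWSD 3, 30.6, 76.4 and 125 CPM in T, 42.8, 77.1 and 129.8 CPM in WSD, and 65.4 to 204 CPM in C, where C 2 and C 12 were highest. Its change in T against C was -0.74 ± 0.37 (adjusted p 0.283), and -1.04 without those 3 controls. For these 3 genes the groups T and WSD overlapped C.

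The remaining accessory genes with the smallest p in T against WSD were NDUFV3, which sits beside NDUFV1, and NDUFA1, a small membrane-arm subunit. NDUFV3 had 34.3 and 55.5 CPM in TWSD 2 and TWSD 3, 30.3 to 99.6 CPM in T, 34.7 to 74.3 CPM in WSD and 25.5 to 116 CPM in C, and was one of few genes that were not high in TWSD 2. NDUFA1 had 89.2 and 12.7 CPM in TWSD 2 and TWSD 3, 7.48 to 57.2 CPM in T, 9.92 to 35.3 CPM in WSD and 13.9 to 32.1 CPM in C.

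Complex III was described by its core proteins UQCRC1 and UQCRC2, which form the matrix side of the complex, and by 3 small subunits. UQCRC1 had the smallest spread of the 40 genes, an SD of 0.28 on the log2 scale. It had 2329.9 and 1188 CPM in TWSD 2 and TWSD 3, 962 to 1282 CPM in T, 996 to 1566 CPM in WSD and 886 to 1269 CPM in C. UQCRC2 had 840.02 and 550.3 CPM in TWSD 2 and TWSD 3, 335, 584 and 679 CPM at the lowest, median and highest of T, and 279, 457 and 581 CPM in WSD. Controls C 1, C 2, C 8, C 11 and C 12 had 572, 431, 276, 265 and 167 CPM. C 1 was inside the ranges of T and WSD, and C 12 below all libraries. The change of UQCRC2 in T against C was 0.66 ± 0.24 (adjusted p 0.122), 0.93 at adjusted p 0.0190 without C 1, and 0.15 without C 8, C 11 and C 12. UQCRQ, a small subunit near the ubiquinol site, had an SD of 0.90, with 294 and 47.3 CPM in TWSD, 29.7 to 160.4 CPM in T, 43.1 to 114 CPM in WSD and 19.4 to 133 CPM in C. UQCRH, the hinge protein at the contact with cytochrome c1, had an SD of 0.30 and was near its median in both TWSD 2 (79.0 CPM) and C 12 (77.3 CPM).

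Complex IV was described by 4 subunits around its mitochondrially encoded core. COX4I1, the common form of the regulatory subunit 4, had 658 and 229 CPM in TWSD 2 and TWSD 3. It had 211, 318 and 528 CPM in T and 235, 271 and 378 CPM in WSD. Libraries C 1, C 2, C 8, C 11 and C 12 had 431, 369.9, 200.3, 138 and 51.2 CPM. C 8, C 11 and C 12 were below every T, WSD and TWSD library, and C 1 and C 2 were inside their range. COX5A, a matrix-side subunit, had 377 and 302 CPM in TWSD 2 and TWSD 3, 228, 383 and 502 CPM in T and 235, 339 and 375 CPM in WSD. In group C, libraries C 1, C 2, C 8, C 11 and C 12 had 488, 479, 212, 124 and 153 CPM, so that C 1 and C 2 were above both TWSD libraries and all 8 WSD libraries.

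In complex V, ATP5F1A and ATP5F1B are the alpha and beta subunits whose ring makes ATP, and ATP5F1C is the gamma subunit that turns inside it. ATP5F1A had 4559.5 and 2575 CPM in TWSD 2 and TWSD 3, 2054, 2619 and 3160.3 CPM at the lowest, median and highest of T and 2403, 2907 and 4343 CPM in WSD. Among controls, C 1, C 2, C 8, C 11 and C 12 had 2883, 2400.05, 2001, 1487 and 433 CPM. ATP5F1B had 496 and 929 CPM in TWSD 2 and TWSD 3, 808, 1179 and 1285 CPM in T and 812, 1037 and 1261 CPM in WSD, and controls C 1, C 2, C 8, C 11 and C 12 had 1447, 1119, 743, 551 and 1147 CPM. ATP5F1A was highest and ATP5F1B lowest of all libraries in TWSD 2, while in C 12 ATP5F1A was lowest and ATP5F1B inside the range of T and WSD.

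The balance of the ATP synthase subunits stood apart in the same 2 libraries. The log2 CPM of ATP5F1A less that of ATP5F1B was 3.20 in TWSD 2, -1.40 in C 12 and 0.99 to 2.03 in the other 23 libraries. For ATP5F1C less ATP5F1B it was 1.57 in TWSD 2, -2.45 in C 12 and -1.52 to -0.79 in the others. These are differences within a library on one scale, and gene length does not enter a comparison of the same pair of genes between libraries. ATP5F1C had 1469 and 469 CPM in TWSD 2 and TWSD 3, 387, 455 and 669 CPM in T, 372, 471 and 529 CPM in WSD, and controls C 1, C 2, C 8, C 11 and C 12 had 527, 566, 376, 289.5 and 211 CPM. Its change in TWSD against C, 1.30 ± 0.34, had the smallest adjusted p of any member in any comparison, 0.0526. It was 0.27 without TWSD 2 and 0.84 without C 8, C 11 and C 12. The change of ATP5F1A in WSD against C was 0.70 ± 0.28 (adjusted p 0.166), and 0.21 without those 3 controls.

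**Figure D3:**
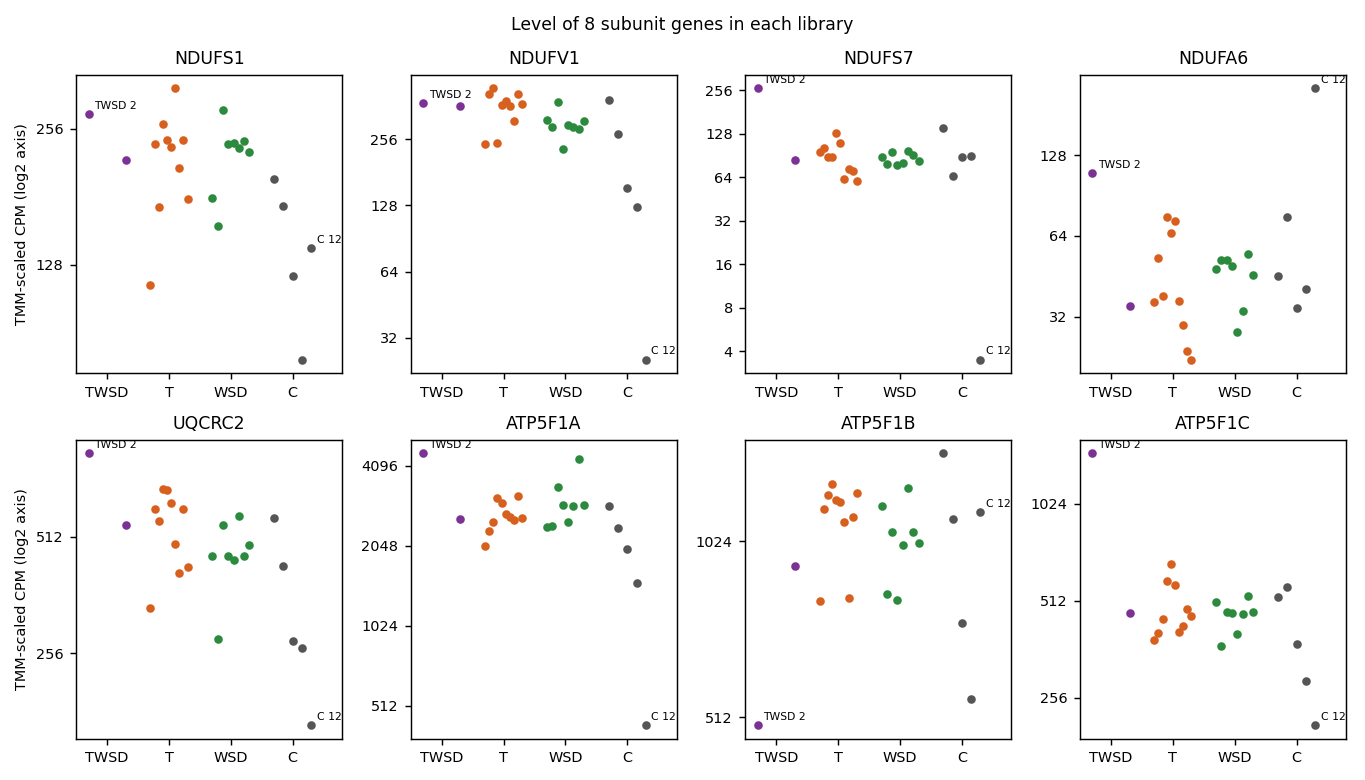
TMM-scaled CPM of 8 subunit genes on a log2 axis, with 1 point per library in the groups TWSD, T, WSD and C. In NDUFS1 both TWSD libraries (276 and 218 CPM) lie above all controls, and ATP5F1B has its lowest level (496 CPM) in TWSD 2.

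In embryos of testosterone-treated females on standard chow (T) against controls, edgeR's quasi-likelihood test called 0 of 40 subunit genes at an adjusted p under 0.05, beside 4.11% of all genes tested in either direction. At an unadjusted p under 0.05, 3 were higher (4.36% of all genes) and 1 lower (13.9%). DESeq2 called 0 of 40 as well, beside 7.63% of all genes, and limma voom called 0 of 40 and 0% of all genes. Without C 1 the test called 3 of 40, beside 9.32% of all genes, and without T 1 it called 1, beside 6.44%. The log2 change was above 0 for 33 of the 40 genes, against 43.8% of all genes, and its median was 0.21, against -0.12 over all genes. The medians were 0.19 for 6 core and 0.18 for 22 accessory genes of complex I, 0.10 for complex III, 0.40 for complex IV and 0.30 for complex V. The direction depended on the controls used. Without C 8, C 11 and C 12 the median was -0.22 and 9 of 40 changes were above 0, with 0.082 over all genes. Scaling by DESeq2's size factors left 27 of 40 changes above 0. With all 5 controls 0 of 40 genes separated T from C, beside 0.179% of all genes above and 0.1% below.

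In embryos of females on the Western-style diet without testosterone (WSD) against controls, the test called 0 of 40, beside 4.07% of all genes. At an unadjusted p under 0.05, 2 were higher (4.41% of all genes) and 2 lower (13.9%). DESeq2 called 0 of 40, beside 8.38% of all genes, and limma voom called 0 of 40 and 0% of all genes. Without C 1 the test called 1 of 40 (NDUFS1), beside 8.03% of all genes. The median log2 change was 0.09, against -0.12 over all genes, with 26 of 40 changes above 0 (43.4% of all genes). The core genes of complex I had a median of 0.21 and the accessory genes one of -0.035. The median over the 40 genes was already below 0 without C 12 alone (-0.060, 17 of 40 above 0), against -0.080 over all genes. Without C 11 alone it was -0.044 (19 of 40), against -0.064 over all genes, and with limma voom -0.021. Without C 8, C 11 and C 12 it was -0.37, with 6 of 40 changes above 0 and 0.065 over all genes. In that comparison with C 1 and C 2 alone, all 8 WSD libraries were below both controls for 11 of 40 genes, beside 4.32% of all genes, and above them for 0 of 40, beside 3.32%. C 1 and C 2 were the controls with the highest mean log2 CPM over the subunit genes, 7.22 and 6.94, against 6.36 to 6.95 in WSD. The count thus depended on which controls were kept. The 11 were NDUFA11, NDUFA12, NDUFB1, NDUFB5, NDUFB8, NDUFB9, NDUFB11, NDUFC2 and NDUFS3 of complex I and COX5A and COX6C of complex IV. Against C 1 and C 2 alone 0 of the 40 passed edgeR's test (smallest adjusted p 0.731), beside 0.00742% of all genes. With all 5 controls 0 of 40 genes separated the groups, beside 0.459% of all genes above and 0.237% below.

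In embryos of females with both treatments (TWSD) against controls, the test called 0 of 40, beside 1.2% of all genes. DESeq2 called 5 of 40, beside 14.3% of all genes, and limma voom called 0 of 40 and 0% of all genes. At an unadjusted p under 0.05, 16 of 40 were higher, beside 8.66% of all genes, and 0 lower, beside 13.3%. The median log2 change was 0.77, against -0.38 over all genes, with 34 of 40 changes above 0 (39.5% of all genes). By complex the medians were 0.89 for the core and 0.67 for the accessory genes of complex I, 0.69 for complex III, 0.82 for complex IV and 0.95 for complex V. Without C 8, C 11 and C 12 the median was 0.41, against -0.046 over all genes, with 29 of 40 changes above 0. In that setting 3 of 40 were higher at an unadjusted p under 0.05 in edgeR, beside 8.27% of all genes, and 1 lower, beside 6.75%. Scaling by library totals gave a median of 0.59. The difference rested on TWSD 2. Without it the median was -0.054 and 16 of 40 changes were above 0, and with TWSD 2 as the only library of its group the test called 15 of 40, all higher, beside 20.1% of all genes, the lone library being assumed to vary like the other groups. TWSD 2 also stood apart in markers of other cell types. It held 106 CPM over 6 primitive endoderm markers, against 511 CPM in TWSD 3 and 363 to 1436 CPM in T, WSD and C libraries. Over 12 oocyte markers it held 478 CPM, against 164 CPM in TWSD 3 and 9.71 to 342 CPM in the others. The oocyte markers did not all go the same way. Of 8 tested, 5 had a log2 change above 0 and 3 below 0 in TWSD against C, and BMP15 and ZP1 were at 0 in both TWSD libraries. The part of these markers in the result was not tested. The test called 8 of 40 without C 1, beside 5.41% of all genes, and 3 without C 2, beside 2.81%. It called 2 (NDUFA8 and ATP5F1C) without C 12 or without T 1, beside 2.71% and 2.47%. NDUFS1 was the 1 gene with both TWSD libraries above all controls, beside 5.29% of all genes, and 0 of 40 were below, beside 6.74%. Against C 1 and C 2 alone, both TWSD libraries were above for 2 genes (NDUFA5 and NDUFS1), beside 13.4%, and below for 3 (UQCRH, COX5A and ATP5F1B), beside 19.2%.

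**Figure D4:**
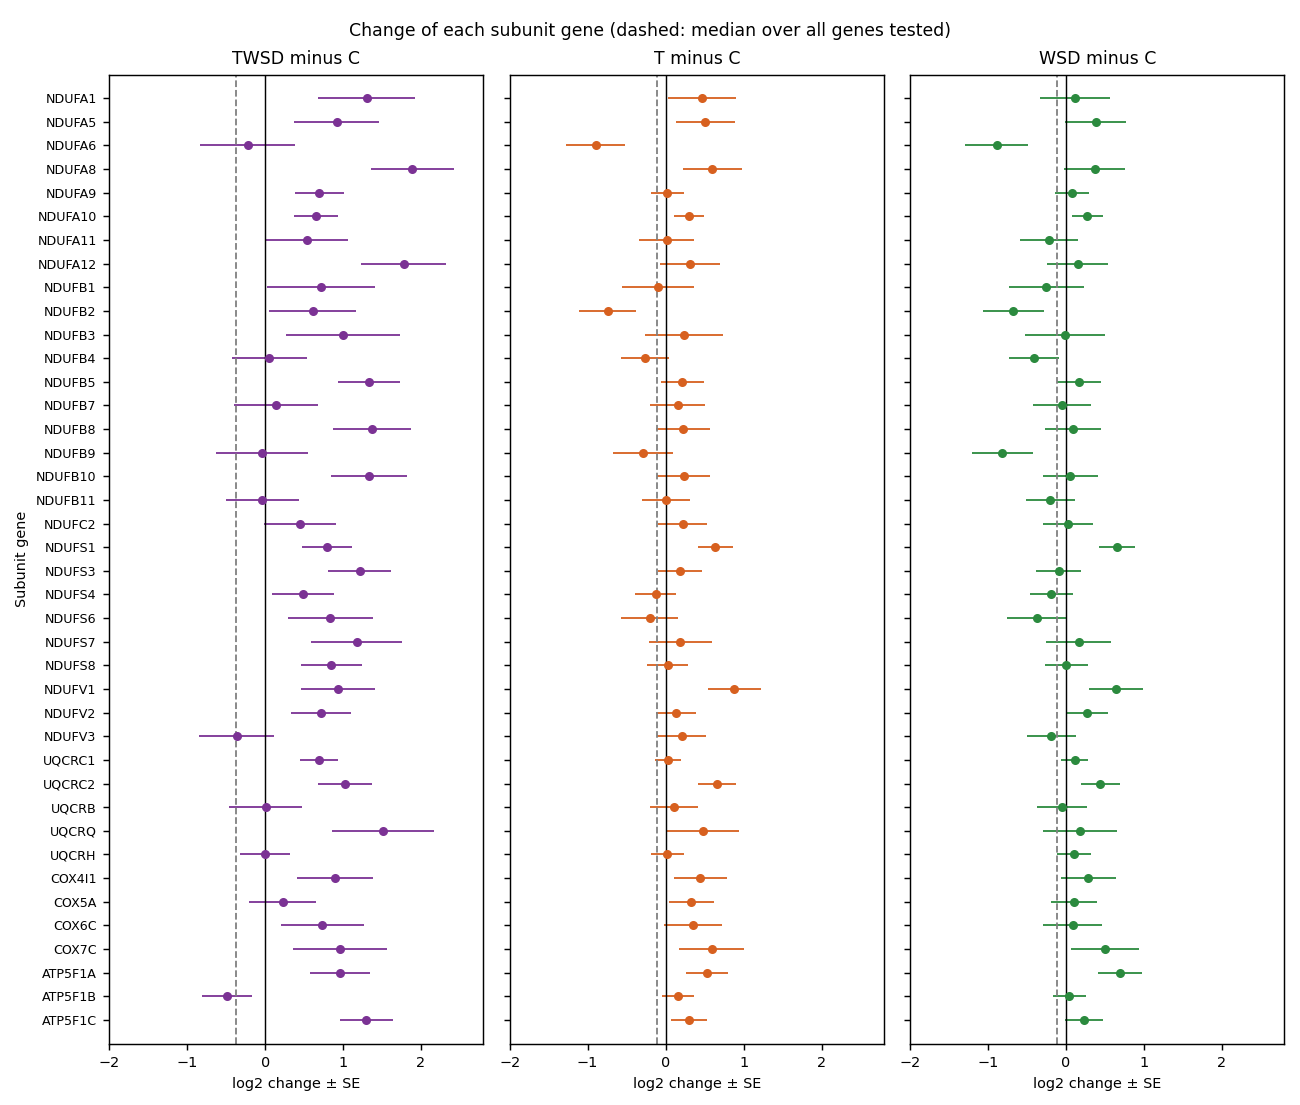
Log2 change ± SE of each of 40 subunit genes in TWSD, T and WSD against C, from edgeR, with the median over all genes tested as a dashed line. The changes in TWSD (median 0.77) lie further right than those in T (0.21) and WSD (0.09), and their standard errors are wider.

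The treated groups were also compared with each other. The control libraries entered these comparisons only through the filter, the scaling and the shared estimate of the spread. In T against WSD the test called 0 of 40 and 0% of all genes tested, and 0 of 40 at an unadjusted p under 0.05, beside 1.01% of all genes higher and 0.689% lower. DESeq2 called 0 of 40 as well, beside 0.0431% of all genes, and limma voom called 0 of 40 and 0% of all genes. The median log2 change was 0.15, against 0.014 over all genes, with 32 of 40 above 0 (51.7% of all genes). The 5 genes with the smallest p were NDUFB9 (0.53 ± 0.34), NDUFV3 (0.39 ± 0.27), NDUFS3 (0.28 ± 0.24), UQCRC2 (0.23 ± 0.20) and NDUFA1 (0.35 ± 0.37), each at an adjusted p of 1.0 in edgeR. No gene separated T from WSD, beside 0.00718% of all genes above and 0% below.

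The T libraries were more spread than the WSD libraries for most subunit genes. The SD of log2 CPM was smaller in WSD than in T for 36 of 40 genes, against 53% of all genes tested, and smaller in T than in C for 34, against 79.5%. The median SD over the 40 genes was 0.49 in T, 0.29 in WSD and 0.79 in C, against 0.74, 0.71 and 1.39 over all genes. These counts are a description, and the genes share the same libraries.

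In TWSD against the mean of T and WSD no control level is compared, but the controls enter the estimate of the spread. The test called 0 of 40, beside 0.1% of all genes, and DESeq2 called 1 (ATP5F1C), beside 4.84%. Limma voom called 0 of 40 and 0% of all genes. At an unadjusted p under 0.05, 13 were higher (8.07% of all genes) and 0 lower (6.33%). The median was 0.58, against -0.20 over all genes, with 36 of 40 above 0 (42.9% of all genes). With scaling by library totals it was 0.28, against -0.33 over all genes. The largest changes by p were ATP5F1C at 1.03 ± 0.29 (adjusted p 0.0967), NDUFA12 at 1.55 ± 0.45 and NDUFS3 at 1.17 ± 0.34 (both 0.108), NDUFB5 at 1.14 ± 0.34 (0.113) and NDUFA8 at 1.41 ± 0.44 (0.137). Without C 12, 5 genes passed, beside 2.58% of all genes, and without C 8, C 11 and C 12, 5 passed, beside 3.84%. With TWSD 2 as the only TWSD library 15 passed, beside 19.5%, and without TWSD 2 the median was -0.24 and 6 of 40 were above 0. The interaction, the effect of testosterone on the Western-style diet less its effect on chow, had 0 of 40 called, beside 0.0718% of all genes. At an unadjusted p under 0.05, 5 were higher (8.6%) and 0 lower (4.96%). DESeq2 called 0 of 40, beside 2.83% of all genes, and limma voom called 0 of 40 and 0% of all genes. Its median was 0.66, against -0.061 over all genes, with 30 of 40 above 0 (48.2% of all genes). It was 0.24 with scaling by library totals, against -0.35 over all genes, and -0.39 without TWSD 2. With TWSD 2 alone in its group the interaction had 9 called, beside 16.2% of all genes.

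**Figure D5:**
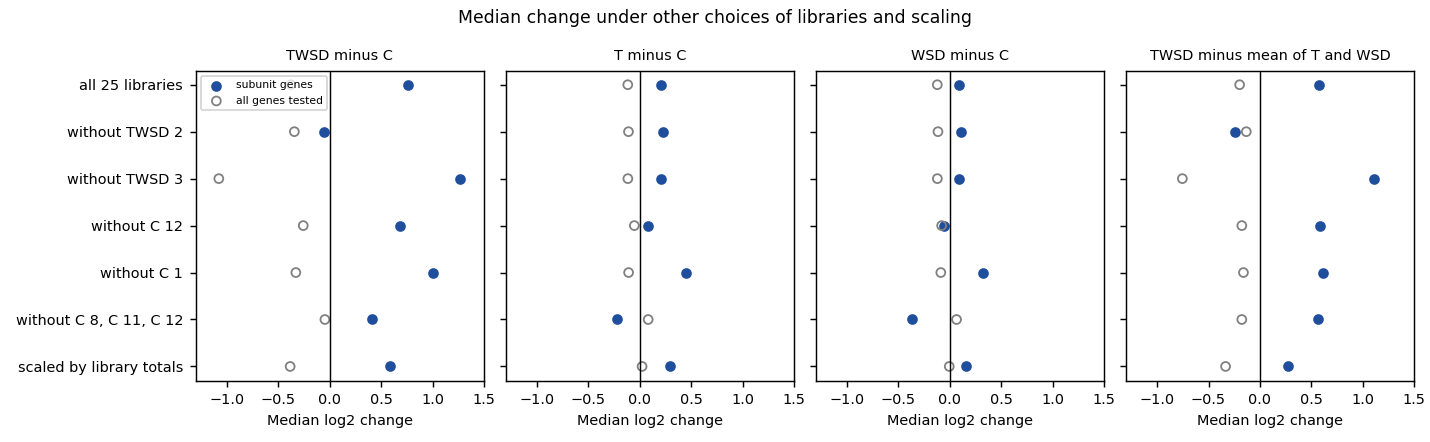
Median log2 change over 40 subunit genes (filled) and over all genes tested (open) in 4 comparisons, with all 25 libraries, with single libraries left out, without C 8, C 11 and C 12, and with library totals as the only scaling. The filled points of T and WSD cross 0 without those 3 controls (-0.22 and -0.37), and those of TWSD move from 0.77 to -0.054 without TWSD 2. The filled point of WSD is also below 0 without C 12 alone (-0.060).

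Genes that work with the subunits were counted in lists of their own. Of 24 tested structural subunits outside the 40, among them the succinate dehydrogenase proteins of complex II, 0 passed in any comparison. Of all genes, 1.2%, 4.11% and 4.07% passed in TWSD, T and WSD against C. The shares were 0% in T against WSD, 0.1% in TWSD against the mean of T and WSD and 0.0718% in the interaction. At an unadjusted p under 0.05, 6, 4 and 2 of the 24 were higher and 0 lower in TWSD, T and WSD against C. There 8.66%, 4.36% and 4.41% of all genes were higher and 13.3%, 13.9% and 13.9% lower. Beside 4.11% and 4.07% of all genes called in either direction, 2 of 42 assembly factors fell in T and 1 in WSD against C. These were COA7, needed for complex IV, at -1.28 ± 0.35 in T and -1.51 ± 0.37 in WSD (adjusted p 0.0353 and 0.0212 in edgeR), and PET100, another complex IV factor, at -1.99 ± 0.58 in T (0.0477). COA7 averaged 35.7 ± 10.4 CPM in T, 30.5 ± 8.96 CPM in WSD and 86.7 ± 75.5 CPM in C libraries (SD), where the controls ran from 24.97 to 214 CPM. Without C 12 the changes of COA7 were -0.62 and -0.85 and that of PET100 -1.03, and none of them passed (adjusted p 0.413, 0.215 and 0.500). With C 8, C 11 and C 12 left out they were -1.14, -1.37 and -0.999, and none passed. In that setting 0% of all genes passed in T, 0.00742% in WSD and 0.148% in TWSD against C. With all 25 libraries, 0 of the 42 passed in TWSD against C, beside 1.2% of all genes. At an unadjusted p under 0.05, 10, 2 and 1 of the 42 were higher and 2, 6 and 7 lower in TWSD, T and WSD against C, beside the shares of all genes given above.

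Of 22 genes for mitochondrial gene expression and biogenesis, 1 rose in TWSD and 1 in T against C, and 1 fell in T. In WSD 0 passed. Of all genes, 1.2%, 4.11% and 4.07% passed in TWSD, T and WSD, in either direction. LRPPRC, which stabilises mitochondrial messenger RNAs, rose in TWSD and in T against C. It averaged 1411 ± 627 CPM in TWSD, 793 ± 135 in T, 762 ± 225 in WSD and 423 ± 229.8 CPM in C, with changes of 1.74 ± 0.36 in TWSD (adjusted p 0.0177) and 0.91 ± 0.26 in T (0.0455). GABPB1, a subunit of a transcription factor for mitochondrial genes, fell in T, at -1.18 ± 0.33 (0.0383), with 80.9 ± 12.9 CPM in T and 183 ± 212 CPM in C. Without C 12 the changes in T were 0.82 for LRPPRC (0.171) and -0.13 for GABPB1 (0.850), and without TWSD 2 the change of LRPPRC in TWSD was 1.22 (0.637). Without C 8, C 11 and C 12 LRPPRC was at 1.23 in TWSD (0.132) and 0.41 in T, GABPB1 at -0.13 in T, and neither passed. Of 50 tested mitochondrial ribosome genes, 0 passed in T and WSD against C, beside 4.11% and 4.07% of all genes. In TWSD against C, MRPS30 (1.80 ± 0.37, adjusted p 0.0177) and MRPL22 (1.86 ± 0.42, 0.0259) rose, beside 1.2% of all genes called. At an unadjusted p under 0.05, 17, 7 and 1 of the 50 were higher and 0, 0 and 1 lower in TWSD, T and WSD. The shares of all genes at that threshold are those given for the structural subunits. TWSD 2 held 1607 CPM of MRPS30 and 373 CPM of MRPL22, against 387 and 60.0 CPM in TWSD 3, and without TWSD 2 their changes were 0.45 and 0.019. Without C 8, C 11 and C 12 they were 1.85 (0.0768) and 1.69 (0.121). MRPL22 also rose in TWSD against the mean of T and WSD, at 1.73 ± 0.34 (0.0365), against -0.12 without TWSD 2. Of 45 tested cytosolic ribosomal protein genes, RPL6 rose in T (0.82 ± 0.23, 0.0463) and RPL7 in TWSD (1.08 ± 0.26, 0.0392). Of all genes, 4.11% and 1.2% passed there. RPL6 was at 0.71 (0.175) without C 12 and RPL7 at 0.40 without TWSD 2. With the 3 controls C 8, C 11 and C 12 left out they were 0.45 and 0.92, and neither passed. In T against WSD and in the interaction, 0 genes of these lists passed. Of the tissue-specific subunit partners, 2 were tested and 0 passed, and the 13 genes of the mitochondrial genome were not matched and were not analysed here.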

How the data were processed

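RNA sequencing covered 25 blastocyst libraries of rhesus macaque. Per the submitters' processing notes, FastQC 0.11.8, Trimmomatic 0.39 and STAR 2.7.0 were run, with Mmul_10 as the build. What the authors deposited is a single table of unnormalized gene counts in whole numbers. How reads were counted, with which annotation and strand setting, and what was done with duplicates is not stated in the labels. Several subunit genes have near-identical processed copies or overlapping neighbours, and how shared reads were counted cannot be followed. Symbols came from a table that named 24173 of the 35395 identifiers. Columns of other samples numbered 0.

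The filter asked for 1 CPM or more in 5 or more libraries, which left 13934 genes, 12605 of them named. In the library with the smallest scaled depth 1 CPM was 14.6 counts. Library sizes were adjusted by TMM, and edgeR 4.0.16 (R 4.3.3) was run on the 4 groups with no other term. Each comparison used the quasi-likelihood F-test with robust dispersions, Benjamini-Hochberg adjustment over all genes tested and a threshold of 0.05. All adjusted p-values come from this fit unless another tool is named. The biological coefficient of variation was 0.900. A standard error is the log2 change divided by the square root of F. Log2 CPM used a prior count of 1. No library repeats another of its group, since the chi-square per gene was 47.4 or more in each of 84 pairs. The procedure was tested on simulated data. Alternatives were DESeq2 1.42.0, limma 3.58.1 (voom with quality weights), other scaling, no count filter, single libraries of C and TWSD and T 1 left out, C 8, C 11 and C 12 left out together, and replicate numbers as a block.

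The subunit list, the other gene lists and the alternatives were chosen with earlier results of these data known. The division of complex I into core and accessory genes was made after values were seen and carries no test. Members with a test are the 5 with the smallest p in each comparison other than the interaction, passing or not. Levels are also given for core or regulatory subunits of each complex and for the 3 genes with the largest and the smallest spread. Genes of the lists of partner proteins are named where they passed, at most 5 in each direction. Naming by level per coding length was not run, since no gene lengths were used.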

Additional observations from a re-analysis of the deposited data

Results flagged for a closer look

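Single libraries stood far from the rest of their group in 3 of 81 groups of values. These covered 22 subunit genes and the means over each complex and over all members, in groups C, T and WSD. Chance marks about 1 in 20 such groups, a share that 3 of 81 does not exceed. NDUFS7, which carries the last iron-sulphur cluster before ubiquinone, was at 3.50 CPM in C 12, against 65.6 to 140.02 CPM in the other controls. NDUFA10, an accessory subunit of complex I, was at 141 CPM in T 1, against 208 to 321 CPM in the other T libraries. UQCRC2, a core protein of complex III, was at 279 CPM in WSD 3, against 445 to 581 CPM in the other WSD libraries.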

How the results depend on the processing

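The limits are 2 TWSD libraries, of which 1 stood apart, and the spread of the controls. NDUFA2 and COX5B held too few counts to be tested. Of 375 repeats of the 25 single-member changes under the alternatives, 328 kept direction and call, 41 kept direction and passed the test, and 6 turned direction. With libraries left out singly, the members called ran from 0 to 3 in T against C, 0 to 1 in WSD against C, 0 to 15 in TWSD against C, 0 to 15 in TWSD against the mean of T and WSD, and 0 to 9 in the interaction. The median change ran from 0.082 to 0.445 in T against C and from -0.060 to 0.326 in WSD against C, lowest without C 12 and highest without C 1. It ran from -0.054 to 1.27 in TWSD against C, from -0.24 to 1.11 in TWSD against the mean of T and WSD and from -0.39 to 1.22 in the interaction, lowest without TWSD 2 and highest without TWSD 3. Over the same settings NDUFS3 ran from -0.045 to 1.88 in TWSD against C. In TWSD against the mean of T and WSD, NDUFS3 ran from -0.10 to 1.83, NDUFA8 from -0.25 to 2.16, ATP5F1C from -0.0059 to 1.63 and MRPL22 from -0.12 to 2.52. With C 8, C 11 and C 12 left out together, the mean of C for complex I was 6.62 (a setting added after seeing the data). In that setting WSD against C had a median of -0.37 and NDUFV1 there was at -0.094. In TWSD against the mean of T and WSD 5 members were called, beside 3.84% of all genes. WSD and C did not overlap for 11 of 40 members, all below, beside 3.32% of all genes above and 4.32% below. TWSD and C did not overlap for 5 of 40, 2 above and 3 below, beside 13.4% of all genes above and 19.2% below. DESeq2 called 5 members in TWSD against C, beside 14.3% of all genes, and 1 in TWSD against the mean of T and WSD, beside 4.84%. The median of the interaction was 0.027 with limma voom. Scaling by library totals in place of TMM moved the median over all genes in T against C to 0.023, against -0.12, while the members' median less that of all genes was 0.27, against 0.33. Replicate numbers did not pair the libraries: 2 of 16 same-number pairs had a correlation of deviations over 0.1 (range -0.35 to 0.20), and 1 of 23 libraries correlated best with its own number. With the replicate block 0 members and 0% of all genes were called in any comparison. The interaction median was then 0.15 and NDUFA6 in WSD against C was at 0.011. Except where a left-out library makes the change, the cause was not tested.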
